A study of Mus musculus with 17 samples.

Results

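The 10 mouse genes of major histocompatibility complex (MHC) class II antigen presentation were followed in Kupffer cells (KCs), macrophages that reside in the sinusoids of the liver. They were chosen by symbol alone, without regard to their values, and are H2-Aa, H2-Ab1, H2-Eb1, Cd74, H2-DMa, H2-DMb1, H2-DMb2, H2-Oa, H2-Ob and Ciita. All 10 were among the 25124 genes listed in each of the 3 expression tables, and all 10 were expressed highly enough to be tested in each. RNA-seq had been performed on 17 samples of sorted KCs that carried F4/80 and TIM4, after T cells, B cells, NK cells and neutrophils had been gated out by their surface markers. The main subset, TIM4+CD206+ KCs, was sorted from 3 untreated, tumour-free samples and from 3 samples taken 2 weeks after tumour cells had been injected into the portal vein. The minor subset, TIM4+CD206hi KCs, gave 3 tumour-free and 3 tumour-bearing samples, and whether these share animals with those of the main subset was not given. The tumour cells were of a KPC line, derived from a mouse model of pancreatic cancer. The remaining 5 samples were KCs of untreated littermates, 3 of the genotype Id3f/f, in which the Id3 gene is flanked by loxP sites, and 2 of the genotype Clec4fCreId3f/f, in which Cre recombinase expressed from the Kupffer cell gene Clec4f deletes it. ID3 is a nuclear protein that binds other helix-loop-helix factors and keeps them from DNA.

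MHC class II molecules carry peptides from endocytosed proteins to the cell surface, where CD4 T cells read them. H2-Aa and H2-Ab1 encode the α and β chains of the I-A molecule, and H2-Eb1 encodes the β chain of I-E. Cd74 encodes the invariant chain, which escorts new class II molecules to endosomes and blocks their groove on the way. H2-DMa, H2-DMb1 and H2-DMb2 encode the chains of H2-M, which exchanges the last piece of the invariant chain for other peptides. H2-Oa and H2-Ob encode H2-O, which restrains H2-M and is best known from B cells. Ciita encodes the transactivator that is recruited to the promoters of all these genes, and interferon-γ is its best known inducer in macrophages.

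Of the 10 genes, 8 lie in the MHC on chromosome 17, at GRCm38 positions chr17:34092379-34095234 for H2-Oa, chr17:34119693-34139101 for H2-DMa, chr17:34143229-34151553 for H2-DMb2, chr17:34153191-34160229 for H2-DMb1, chr17:34238905-34245908 for H2-Ob, chr17:34263227-34269418 for H2-Ab1, chr17:34282744-34287823 for H2-Aa and chr17:34305867-34316674 for H2-Eb1. Their promoters are shown because they give a feature in common that the choice of genes did not use. RefSeq promoters, on the build GRCm38.p6, were matched for 7 of the 10 genes (H2-Aa, H2-Eb1, H2-DMa, H2-DMb1, H2-DMb2, H2-Oa and H2-Ob). Class II promoters are known for an X box, bound by the RFX complex, and a Y box, bound by NF-Y, and CIITA docks on the proteins bound there. The letters ATTGG, the core of a Y box, were found within the 120 bases before the start of 6 of these 7 genes, and are shown for them in capitals in stretches of 60 bases that end upstream of the start. The letters GCAAC, part of an X box, are in capitals where they lay 25 to 40 bases before ATTGG on the same strand.
H2-Aa: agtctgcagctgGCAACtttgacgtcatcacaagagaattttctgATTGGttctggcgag
H2-Eb1: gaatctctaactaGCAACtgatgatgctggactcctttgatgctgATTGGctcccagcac
H2-Oa: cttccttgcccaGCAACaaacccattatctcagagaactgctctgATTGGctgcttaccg
H2-Ob: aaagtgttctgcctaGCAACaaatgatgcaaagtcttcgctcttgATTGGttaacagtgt
H2-DMb1: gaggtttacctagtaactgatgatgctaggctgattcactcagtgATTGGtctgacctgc
H2-DMb2: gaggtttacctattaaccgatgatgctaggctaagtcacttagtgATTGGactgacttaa

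The stretches lie at chr17:34287857-34287916 on the minus strand for H2-Aa, and on the plus strand at chr17:34305763-34305822 for H2-Eb1, chr17:34092291-34092350 for H2-Oa, chr17:34238803-34238862 for H2-Ob, chr17:34153085-34153144 for H2-DMb1 and chr17:34145114-34145173 for H2-DMb2. ATTGG began 48 bases before the start in H2-Aa, 59 in H2-Eb1, 43 in H2-Oa, 57 in H2-Ob, 61 in H2-DMb1 and 90 in H2-DMb2. The spaced pair of GCAAC and ATTGG was found in 4 of the 7 genes, with 30 to 33 bases between their first letters. Over the 250 bases before the start, searched on both strands, ATTGG was held by 33.8% of 32851 promoters, GCAAC by 29.9% and the spaced pair by 0.673%. On that wider measure ATTGG was held by all 7 of the genes matched here. H2-DMa, which has 2 starts in the table, held no ATTGG within 120 bases of either. A match of letters is a description of the window and not evidence that a protein binds there.

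The values in the tables look like a log2 scale on which differences of weakly expressed genes were damped, although the labels, which name counts and TPM, do not say so. They are read here in that way. A difference of 1 is then a doubling of the damped values, and changes of weak genes are understated. Levels per kilobase also rest on this reading, since TPM would already be divided by length. The number of reads behind each value is unknown, because the tables hold normalized values. Tables were normalized separately, and levels are therefore compared only within a table. In the comparison of genotypes each sample was of its own mouse. Whether the replicates of a tumour comparison came from separate mice was not given in the labels, so that the p-values there measure the spread between these samples.

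The other 2 genes lie elsewhere, Cd74 at chr18:60803849-60812652 and Ciita at chr16:10480014-10531064 (GRCm38).

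Class II genes ranked among the most abundant transcripts of KCs. Per kilobase of transcript, on the log2 scale, the mean level in tumour-free TIM4+CD206+ KCs was 18.73 for Cd74, 17.49 for H2-Aa, 17.48 for H2-Ab1, 16.39 for H2-Eb1, 14.73 for H2-DMa, 14.52 for H2-DMb1, 10.94 for H2-DMb2, 9.36 for Ciita, 9.26 for H2-Oa and 8.40 for H2-Ob. The invariant chain thus led, the surface chains followed, then the chains of H2-M, and the transactivator and H2-O came last. In this order the samples of H2-Aa and H2-Ab1 overlapped, as did those of H2-Ab1 and H2-Eb1, of H2-DMa and H2-DMb1 and of Ciita and H2-Oa. Before the division by length, the values of Cd74, H2-Aa, H2-Ab1 and H2-Eb1 exceeded those of 99.1% or more of the genes tested in each of the 6 groups. H2-Oa exceeded 63.3% in tumour-free TIM4+CD206+ KCs, 33.0% in tumour-free TIM4+CD206hi KCs and 18.8% in Id3f/f KCs. Per kilobase, Cd74 held the first place in all 6 groups, and the places after it went to H2-Aa and H2-Ab1. Among the tumour-free samples of each subset H2-Aa was ahead of H2-Ab1 in 1 of 3, replicate 1 of TIM4+CD206+ and replicate 3 of TIM4+CD206hi KCs, and H2-Ab1 was ahead in the mean of the other 4 groups. H2-Ea-ps, the nonfunctional α chain gene of I-E in C57BL/6 mice, was listed at 0 in every sample. Without this chain, I-E is not assembled in C57BL/6 mice, so that H2-Eb1 is measured here as an RNA only.

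H2-DMb1 and H2-DMb2 are near copies. Their transcripts were identical at 1185 of 1255 aligned bases (94.4%), and 13.7% of the windows of 100 bases in H2-DMb1 occurred letter for letter in H2-DMb2. Reads from such windows cannot be assigned to either gene by sequence, and the split between both is therefore uncertain. None of the other 8 shared such a window with another gene. H2-DMa overlaps the annotated span of Brd2, H2-Oa that of BC051537, Cd74 that of Mir5107 and Ciita those of Dexi and LOC115488669, and whether reads were counted by strand was not given in the sources used here.

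The samples were first checked against their labels. Clec4f and Timd4, which encodes TIM4, were expressed in all 17 samples, between 16.11 and 19.65 for Clec4f and between 13.76 and 15.25 for Timd4. Id3 was 12.58, 12.46 and 12.82 in Id3f/f KCs and 9.83 and 9.82 in Clec4fCreId3f/f KCs. Xist, a transcript of female cells, was 6.38, 6.33 and 6.36 in Id3f/f KCs and 9.84 and 9.76 in Clec4fCreId3f/f KCs, so that the sex of the animals and the genotype cannot be told apart in that comparison. Markers of other cells moved with tumour. Of all genes tested, 0.998% were called lower in TIM4+CD206+ KCs (132 of 13233, beside 337 higher). In TIM4+CD206hi KCs 2.03% were (295 of 14561, beside 758 higher). All 10 tested epithelial tumour markers were called higher in tumour-bearing samples of both subsets, as were 5 of 9 monocyte markers and 5 of 8 neutrophil markers in each, while 7 of 9 hepatocyte markers were called lower in each. Kupffer cell markers were called lower for 2 of 13 in TIM4+CD206+ KCs, Adgre1 and Timd4, and for 0 of 13 in TIM4+CD206hi KCs, and their summed level was 20.58 to 20.91 without and 20.11 to 20.21 with tumour in the first and 19.87 to 20.34 and 19.70 to 19.89 in the second. Endothelial markers were called lower for 0 of 10 and 3 of 10, and T and NK cell markers for 0 of 10 in both. The summed endothelial level was 14.02 to 14.87 without and 13.63 to 14.05 with tumour in TIM4+CD206+ KCs, with a median difference of -0.62. In TIM4+CD206hi KCs it was 17.53 to 18.12 and 16.82 to 17.14, without overlap, with a median difference of -0.84. The T and NK cell sum was 11.70 to 12.59 and 11.56 to 11.69 in the first, and 11.49 to 11.92 and 11.08 to 11.12 in the second. In bulk samples, fewer cells of a type and less RNA per cell cannot be told apart.

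The first comparison addressed how the KCs of the main subset differ when a tumour grows in the liver. In TIM4+CD206+ KCs the mean of each of the 10 class II genes was lower in tumour-bearing samples, with differences from -0.07 for H2-DMb2 to -1.12 for Ciita on the log2 scale, although H2-DMb2 was higher by 0.04 once tumour-free replicate 1 was left out. No gene of the 10 passed the threshold of 0.05 on the adjusted p of limma, in a fit that did not pair samples. In it 0.998% of the 13233 genes tested were called lower (132 genes, beside 337 called higher). At an unadjusted p under 0.05, 3 of the 10 were lower, beside 7.84% of all genes tested. Over all genes 47.9% had a lower mean, and the median difference was 0.02, against -0.69 for the class II genes.

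The invariant chain gene, Cd74, was 19.44, 18.58 and 19.66 in the tumour-free samples and 18.49, 18.38 and 18.36 in the tumour-bearing ones. The groups did not overlap, but tumour-free replicate 2 lay 0.09 above the highest tumour-bearing sample. The difference was -0.82 ± 0.28 (SE, limma, n = 3 and 3, adjusted p = 0.187), with a 95% interval from -1.47 to -0.16.

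Among the surface chains, H2-Aa was 17.98, 16.76 and 18.25 without tumour and 16.86, 16.90 and 16.84 with tumour. H2-Eb1 was 17.40, 16.12 and 17.86 without tumour and 16.36, 16.29 and 16.16 with tumour. In both genes tumour-free replicates 1 and 3 stood more than 1 unit above every tumour-bearing sample, while replicate 2 was the lowest of all 6. H2-Ab1 was 17.49, 17.26 and 18.54 without tumour and 17.09, 17.40 and 17.04 with tumour, and there replicate 2 fell inside the tumour-bearing range. The differences were -0.80 ± 0.35 for H2-Aa (adjusted p = 0.299), -0.86 ± 0.39 for H2-Eb1 (adjusted p = 0.317) and -0.58 ± 0.32 for H2-Ab1 (adjusted p = 0.421; SE and limma for all, n = 3 and 3).

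The same replicate stood apart in the transactivator and in H2-M. Ciita was 12.59, 10.87 and 12.38 without tumour and 11.01, 10.77 and 10.71 with tumour, a difference of -1.12 ± 0.41 (SE, limma, adjusted p = 0.205). H2-DMa was 15.89, 14.64 and 15.84 without tumour and 14.91, 14.90 and 14.90 with tumour. H2-DMb1 was 15.45, 14.10 and 15.47 without tumour and 14.55, 14.56 and 14.46 with tumour. For both genes, tumour-free replicate 2 was below all tumour-bearing samples, and the differences of -0.55 ± 0.31 and -0.48 ± 0.34 had adjusted p-values of 0.434 and 0.546 with limma. H2-DMb2, at 11.66, 11.17 and 11.51 against 11.34, 11.37 and 11.43, overlapped between the groups (difference -0.07 ± 0.18, SE, limma, adjusted p = 0.913).

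Of the H2-O genes, H2-Ob was 9.88, 9.97 and 9.59 without tumour and 8.96, 9.20 and 8.85 with tumour. Its groups did not overlap, and tumour-free replicate 2, the lowest for 9 of the 10 genes, was here the highest. The difference was -0.81 ± 0.20 (SE, limma, n = 3 and 3, adjusted p = 0.0759). H2-Oa was 9.58, 9.20 and 9.36 without tumour and 9.19, 9.32 and 9.04 with tumour, which overlapped. Without overlap were thus 2 of the 10 genes, Cd74 and H2-Ob, beside 10.5% of all genes tested that did not overlap and were lower.

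**Figure D1:**
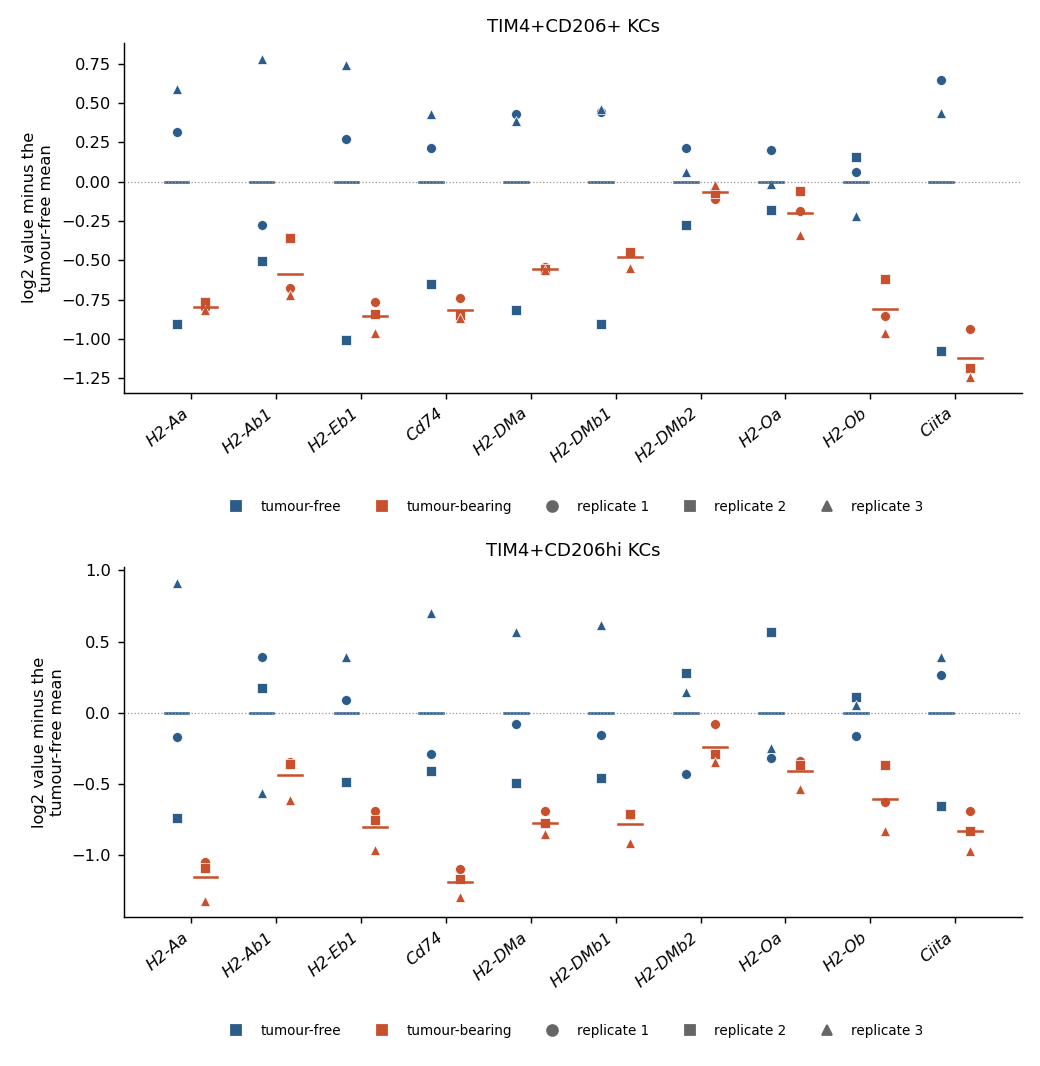
Value of each class II gene (log2) minus the mean of the tumour-free samples of the same subset, with 1 point per sample, the replicate number as the shape, and short lines at the group means (n = 3 per group). In TIM4+CD206+ KCs (top) tumour-free replicate 2 lies at or below the highest tumour-bearing sample for 8 of 10 genes. In TIM4+CD206hi KCs (bottom) the groups do not overlap for 8 of 10 genes.

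Over all genes tested, replicates with the same number deviated together in TIM4+CD206+ KCs (r = 0.35, 0.564 and 0.149), although no label pairs them. The mean of the 10 class II genes did not follow this. In it replicate 2 was lowest without tumour (13.87, beside 14.73 and 14.85) and highest with tumour (13.91, beside 13.88 and 13.78). A fit with the replicate number as a block called Ciita (adjusted p = 0.0293, limma) and H2-Ob (adjusted p = 0.0275, limma) lower. In that fit 3.09% of all genes were called lower, and 1026 were called in all against 469 without the block. Leaving out tumour-free replicate 2 had a larger effect. Then 6 of the 10 genes were called lower (H2-Aa, H2-Eb1, Cd74, H2-DMa, H2-DMb1 and Ciita, adjusted p from 0.000866 to 0.00229 with limma), and 4.45% of all genes were. Their differences then ran from -0.94 for H2-DMb1 to -1.66 for Ciita. Without any other library no gene of the 10 was called. The tumour-free samples varied more than the tumour-bearing ones for 10 of 10 genes, with a median SD of 0.697 against 0.0841, while over all genes tested these medians were 0.299 and 0.222.

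In TIM4+CD206hi KCs, the minor subset, the mean of each of the 10 genes was again lower in the tumour-bearing samples, with differences from -0.24 for H2-DMb2 to -1.19 for Cd74. None passed the adjusted threshold with limma, where 2.03% of 14561 genes were called lower (295 genes, beside 758 called higher, or 518 and 664 after quantile normalization). At an unadjusted p under 0.05, 7 of the 10 were lower, beside 8.57% of all genes tested. Here 8 of the 10 genes did not overlap between the groups, the exceptions being H2-Ab1 and H2-DMb2, beside 15.2% of all genes tested that did not overlap and were lower. The median difference of the class II genes was -0.78 and that of all genes 0.03. Median centring moved the latter to -0.13, and the class II median to -0.94. Since both subsets were normalized in separate tables, whether their differences with tumour were unequal was not tested.

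Cd74 was 18.14, 18.02 and 19.14 in the tumour-free samples of this subset and 17.34, 17.27 and 17.14 in the tumour-bearing ones. Every tumour-free sample was at least 0.69 above every tumour-bearing one. The difference was -1.19 ± 0.31 (SE, limma, n = 3 and 3, adjusted p = 0.071), with a 95% interval from -1.92 to -0.45.

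H2-Aa was 16.33, 15.76 and 17.42 without tumour and 15.45, 15.42 and 15.18 with tumour (difference -1.15 ± 0.39, SE, limma, adjusted p = 0.153). H2-Eb1 was 15.65, 15.07 and 15.94 without tumour and 14.86, 14.80 and 14.59 with tumour (difference -0.80 ± 0.24, SE, limma, adjusted p = 0.112). In both, replicate 2 was the lowest tumour-free sample but remained above all tumour-bearing ones. H2-Ab1 differed from its partner chain, at 16.61, 16.39 and 15.65 without tumour and 15.87, 15.86 and 15.61 with tumour (difference -0.44 ± 0.27, SE, limma, adjusted p = 0.383).

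Tumour-free replicate 3 of this subset, the highest for H2-Aa, was the lowest for H2-Ab1. In it H2-Aa exceeded H2-Ab1 by 1.76 on the log2 scale, whereas H2-Aa minus H2-Ab1 was -0.63 to -0.28 in the other 5 samples of the subset. The library was low for GC-rich genes as a whole. Its median deviation was -0.59 over 2763 genes with a GC content of 56% or more, against -0.0044 to 0.17 in the other 5, and 0.27 over 3982 genes with a GC content under 46%. The transcript of H2-Ab1 has a GC content of 57.3% and that of H2-Aa 51.0%. When trends with GC content and length were removed from each sample, an adjustment chosen after the data had been seen, H2-Ab1 was 16.71, 16.22 and 16.16 without tumour and 15.72, 15.67 and 15.50 with tumour. Its groups then no longer overlapped, and still no gene of the 10 was called. In the same library H2-Aa still exceeded H2-Ab1 by 1.26 after the adjustment, against -0.51 to -0.26 in the other 5, so that most of the gap remained. Cd74 and H2-DMa, both with a GC content of 56.6%, were highest in this library.

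For H2-M and the transactivator, the groups of TIM4+CD206hi KCs did not overlap, except for H2-DMb2. H2-DMa was 14.03, 13.62 and 14.68 against 13.42, 13.33 and 13.26 with tumour, and H2-DMb1 was 13.63, 13.33 and 14.40 against 13.07, 13.08 and 12.88. Ciita was 11.70, 10.78 and 11.83 without tumour and 10.75, 10.61 and 10.47 with tumour, and tumour-free replicate 2 was 0.03 above the highest tumour-bearing sample. The differences were -0.77 ± 0.27 for H2-DMa, -0.78 ± 0.28 for H2-DMb1 and -0.83 ± 0.29 for Ciita, with adjusted p-values of 0.158, 0.165 and 0.161 (SE and limma for all). H2-DMb2 overlapped, at 9.57, 10.28 and 10.14 against 9.92, 9.71 and 9.65.

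H2-Ob was 8.76, 9.03 and 8.98 without tumour and 8.30, 8.56 and 8.10 with tumour, without overlap (difference -0.61 ± 0.21, SE, limma, adjusted p = 0.153). H2-Oa was 7.53, 8.42 and 7.61 without tumour and 7.52, 7.49 and 7.32 with tumour, groups that were 0.02 apart (difference -0.41 ± 0.28, SE, limma, adjusted p = 0.428). As in the main subset, tumour-free replicate 2 was the highest of its group for H2-Ob, while it was the lowest for 6 of the 10 genes.

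Without tumour-free replicate 2, the 6 genes that were called in the main subset under the same omission were also those called here, with adjusted p-values from 0.00393 to 0.0269 (limma), and 7.39% of all genes were called lower. Whether the samples of that number share an animal between the subsets is unknown, so that this cannot be taken as an independent repeat. Without tumour-free replicate 3, H2-Ab1 (adjusted p = 0.0289, limma) and Cd74 (adjusted p = 0.0115, limma) were called, beside 3.02% of all genes. No other omission of 1 library led to a call among the 10.

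**Figure D2:**
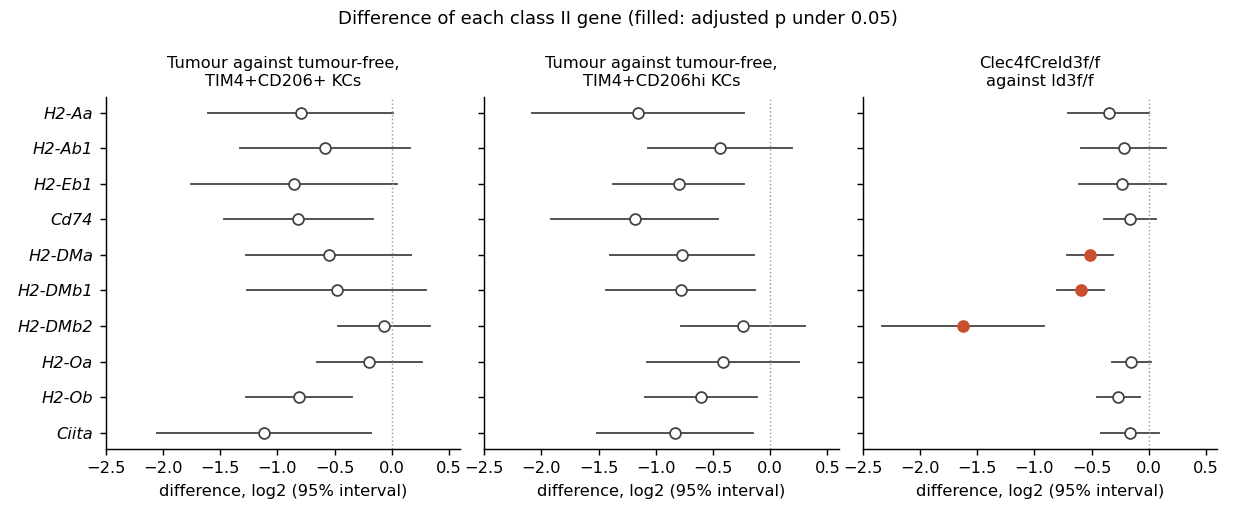
Difference of each class II gene on the log2 scale, tumour-bearing minus tumour-free in both subsets and Clec4fCreId3f/f minus Id3f/f, with 95% intervals from limma. All 30 point estimates lie below 0 with the values as deposited, though quantile normalization moves H2-Ab1 and Cd74 above 0 in the comparison of genotypes. The filled points, H2-DMa, H2-DMb1 and H2-DMb2 in that comparison, mark the 3 with an adjusted p under 0.05.

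Genes that are connected to class II expression were counted from lists. Of 16 partners and inducers of CIITA, such as the RFX and NF-Y subunits and the interferon-γ receptor, 0 passed the adjusted threshold in either subset with limma, and their median differences were -0.02 in TIM4+CD206+ and 0.05 in TIM4+CD206hi KCs. The most abundant of them in the main subset, Irf1, a transcription factor induced by interferon, fell just short (difference -0.92 ± 0.20, SE, adjusted p = 0.0502). Endosomal proteases and the thiol reductase Ifi30, which prepare peptides and trim the invariant chain, had 0 calls among 9 in either subset, and their most abundant member, the protease gene Ctsb, differed by -0.32 ± 0.19 and -0.14 ± 0.19. Genes that govern the turnover of surface class II (Cd83 and the ligase genes March1 and March8) had 0 calls among 3 in either subset, and H2-Eb2, a further β chain gene, was not called.

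Genes induced by interferon-γ were called lower for 3 of 17 in TIM4+CD206+ KCs and 4 of 18 in TIM4+CD206hi KCs, beside 0.998% and 2.03% of all genes. Their median differences were -0.90 and -1.10. Cxcl10, a chemokine gene, fell by 1.55 in the first and fell by 2.20 in the second on the log2 scale (adjusted p = 0.0158 and 0.0425, limma), and the GTPase gene Igtp fell by 1.15 in the main subset (adjusted p = 0.0348). Summed over the list, their level in tumour-free samples was 16.49, 15.37 and 16.25 in the main subset and 17.15, 16.14 and 17.50 in the minor one, and 15.02 to 15.15 and 15.74 to 15.997 with tumour. Replicate 2 was thus the lowest tumour-free sample of both subsets for these genes too, and above all tumour-bearing samples. The arrangement was not particular to them. The T and NK cell sum was 12.59, 11.70 and 12.24 without and 11.56 to 11.69 with tumour in the main subset. In the minor one it was 11.74, 11.49 and 11.92 against 11.08 to 11.12. The endothelial sum was also lowest in tumour-free replicate 2 of both subsets, at 14.02 and 17.53, while the B cell sum was not.

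B cells express class II at high levels, and their markers also moved. In TIM4+CD206+ KCs 5 of 9 tested B cell markers were called lower with tumour, among them Cd79a, which encodes a chain of the B cell receptor complex (difference -1.18 ± 0.17, SE, limma, adjusted p = 0.00687). In TIM4+CD206hi KCs 3 of 11 were. The shares of all genes called lower were 0.998% in the main and 2.03% in the minor subset. The summed level of the list was 13.73 to 13.86 without tumour and 12.82 to 12.90 with tumour in the main subset, and 12.55 to 12.89 and 12.06 to 12.13 in the minor one, and none of the 11 B cell markers analysed was at 0 in every sample. The immunoglobulin genes were not analysed here. In the tumour-free samples of the main subset the sum was 13.73, 13.86 and 13.83, the highest in replicate 2, as was H2-Ob. In those of the minor subset it was 12.55, 12.79 and 12.89, the highest in replicate 3, whereas H2-Ob was highest in replicate 2. Of dendritic cell markers, another class of cells rich in class II, only Cd24a was called in either subset, and it was higher with tumour. The part of these cells in the class II differences was not tested, nor was that of the tumour, monocyte and neutrophil transcripts that were higher with tumour. The part of endothelial, hepatocyte, T and NK cell transcripts, whose median differences were negative in both subsets, was not tested either.

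The class I genes of the MHC and the genes that load peptide on them gave 0 calls among 16 in the main subset, although all 16 means were lower (median -0.52), and 2 of 16 in the minor one, H2-Q6 (-1.47 ± 0.27, SE, limma, adjusted p = 0.0176) and H2-T22 (-1.01 ± 0.23, adjusted p = 0.0462).

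The comparison of genotypes set Clec4fCreId3f/f beside Id3f/f KCs when no tumour was present. Sex and genotype cannot be told apart here, so that no difference can be assigned to the deletion of Id3 alone. The mean of each of the 10 class II genes was lower in Clec4fCreId3f/f KCs, with differences from -0.15 for H2-Oa to -1.62 for H2-DMb2, except that H2-Ab1 and Cd74 were higher by 0.0038 and 0.0561 after quantile normalization. The genes of H2-M, H2-DMa, H2-DMb1 and H2-DMb2, were called lower (limma, adjusted p under 0.05), and the other 7 did not pass. In all, 3.37% of 12833 genes were called lower (432 genes, beside 395 called higher, or 550 and 328 after median centring). The 10 genes had a median difference of -0.25, and all genes one of 0.00.

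H2-DMb2 was 10.92, 10.81 and 9.61 in Id3f/f KCs and 8.89 and 8.75 in Clec4fCreId3f/f KCs. The groups did not overlap, and Id3f/f replicate 3 lay more than 1 unit below the other 2 of its group. The difference was -1.62 ± 0.32 (SE, limma, n = 3 and 2, adjusted p = 0.0199). H2-DMb1 was 13.50, 13.46 and 13.26 against 12.84 and 12.79 (difference -0.60 ± 0.09, SE, limma, adjusted p = 0.00878), and H2-DMa was 14.03, 14.01 and 13.81 against 13.45 and 13.42 (difference -0.51 ± 0.09, SE, limma, adjusted p = 0.014). For these the range within the Id3f/f group, of 0.24 and 0.23, was smaller than the gap to the other genotype, of 0.43 and 0.36. H2-DMb1 exceeded H2-DMb2 by 2.59, 2.65 and 3.66 in Id3f/f KCs and by 3.94 and 4.04 in Clec4fCreId3f/f KCs, with replicate 3 of the Id3f/f group nearer to the other genotype. Because reads of these near copies may be split wrongly, whether they fell by unequal amounts cannot be told from these values.

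Among the surface chains and the invariant chain, Id3f/f replicate 3 lay with the other genotype. H2-Aa was 16.995, 16.93 and 16.35 in Id3f/f KCs and 16.44 and 16.38 in Clec4fCreId3f/f KCs (difference -0.35 ± 0.16, SE, limma, adjusted p = 0.217). H2-Ab1 was 17.58, 17.53 and 16.91 against 17.15 and 17.08 (difference -0.22 ± 0.17, adjusted p = 0.479), and H2-Eb1 was 16.43, 16.35 and 15.74 against 15.97 and 15.92 (difference -0.23 ± 0.17, adjusted p = 0.464; limma for both). Replicates 1 and 2 were above both Clec4fCreId3f/f samples in each of these genes, and replicate 3 was below both.

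H2-Ob was 7.28, 7.35 and 7.18 in Id3f/f KCs and 7.02 and 6.98 in Clec4fCreId3f/f KCs, without overlap (difference -0.27 ± 0.08, SE, limma, adjusted p = 0.0891). H2-Oa was 5.96, 5.75 and 5.99 against 5.75 and 5.75, which overlapped (difference -0.15 ± 0.08, adjusted p = 0.272). At these levels differences would be damped most. Non-overlapping groups were found for 4 of the 10 genes, the chains of H2-M and H2-Ob, beside 21.7% of all genes tested that did not overlap and were lower.

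**Figure D3:**
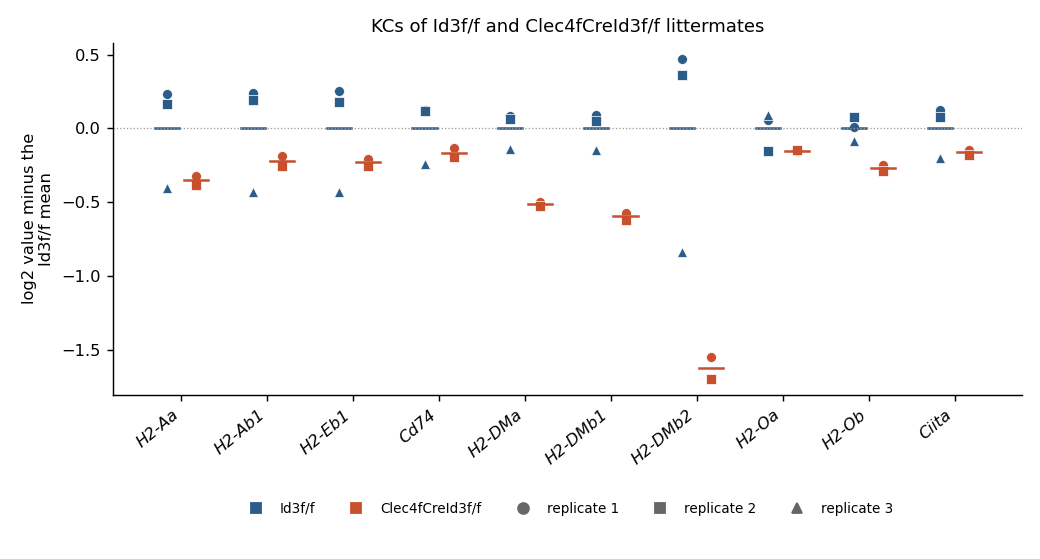
Value of each class II gene (log2) minus the mean of the 3 Id3f/f samples, with 1 point per sample, the replicate number as the shape, and short lines at the group means (n = 3 Id3f/f and 2 Clec4fCreId3f/f). Id3f/f replicate 3 lies below both Clec4fCreId3f/f samples for 5 genes and between the groups for 4.

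Because 8 of the genes are neighbours in one stretch of chromosome 17, those elsewhere were set beside them. Cd74, on chromosome 18, was 19.06, 19.06 and 18.70 in Id3f/f KCs and 18.81 and 18.74 in Clec4fCreId3f/f KCs, a difference of -0.16 ± 0.10 (SE, limma, adjusted p = 0.373). Ciita, on chromosome 16, was 9.13, 9.07 and 8.80 against 8.86 and 8.82, a difference of -0.16 ± 0.11 (SE, limma, adjusted p = 0.44). Both genes outside the MHC thus had the arrangement of H2-Aa, H2-Ab1 and H2-Eb1, with Id3f/f replicates 1 and 2 above the Clec4fCreId3f/f samples and replicate 3 below them. Neither had the arrangement of the H2-M genes and of H2-Ob, in which replicate 3 lay between the groups.

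Within the MHC, taken from H2-K1 to H2-M3 (chr17:33996012-37274485, GRCm38), 18 of 120 genes tested were called lower and 0 higher. Without the class II genes these were 15 of 112 (13.4%), beside 16 of 552 lower (2.9%) on the rest of chromosome 17 and 3.37% of all genes. The 3 largest differences called there outside class II were those of the predicted gene Gm10499 (-1.57 ± 0.31, SE, limma, adjusted p = 0.021), the predicted gene Gm11127 (-1.53 ± 0.30, adjusted p = 0.0221) and the class I pseudogene H2-T-ps (-1.26 ± 0.23, adjusted p = 0.0172). Gm10499 was 8.79, 8.81 and 7.56 in Id3f/f KCs and 6.80 and 6.83 in Clec4fCreId3f/f KCs, which is the arrangement of H2-DMb2, although it lies about 2 Mb away, 2145.7 kb from the start of H2-K1 against 147.2 kb for H2-DMb2. Replicate 3 was more than 0.25 below the mean of replicates 1 and 2 for 6 of the 10 class II genes and for 17.9% of the other genes of the MHC, beside 7.55% of all genes tested. Many class I genes of this region are near copies of each other, and reads may be split among them. Whether the animals differed in their alleles of the MHC was not tested.

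In the stretch from H2-DMa to Psmb8, the 3 chains of H2-M and the immunoproteasome genes Psmb9 (-0.88 ± 0.10, SE, limma, adjusted p = 0.00305) and Psmb8 (-0.57 ± 0.11, adjusted p = 0.02) were called lower, while Tap1, which lies between these and encodes a chain of the peptide transporter, differed by -0.08 ± 0.13 (adjusted p = 0.792). The ends of this stretch were set after the values were seen. Tap2, the next gene tested beyond Psmb8, was not called (-0.27, limma, adjusted p = 0.475). Brd2, whose span overlaps H2-DMa, differed by 0.34 ± 0.10 in the other direction (adjusted p = 0.078). In the tumour comparisons the region as a whole was not marked by lower calls, with 1 of 124 genes called lower and 4 higher in TIM4+CD206+ KCs and 3 of 130 lower and 6 higher in TIM4+CD206hi KCs.

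**Figure D4:**
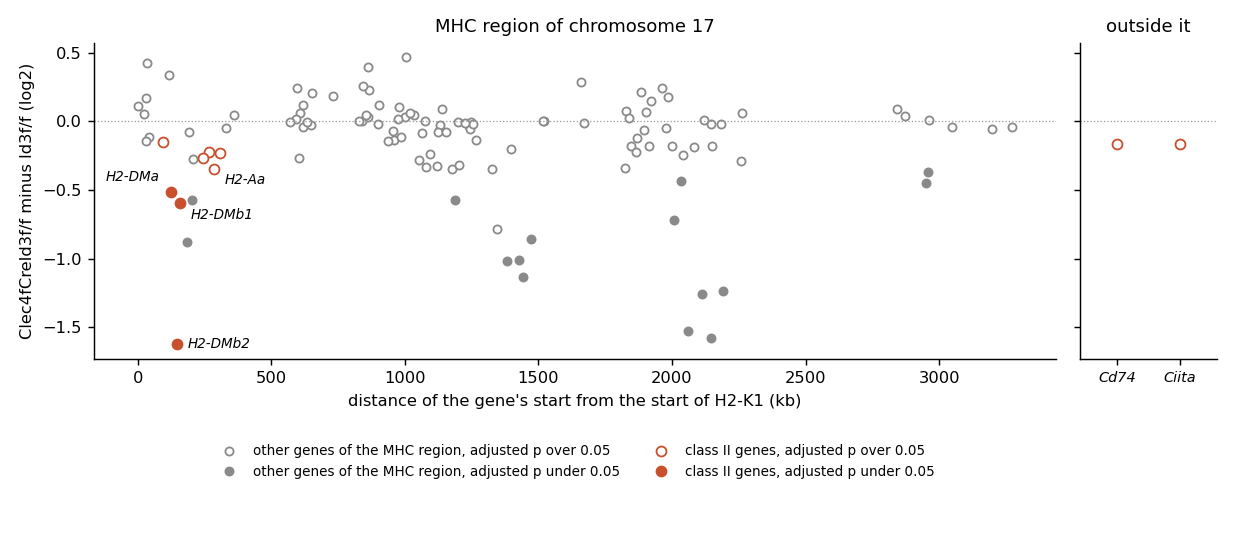
Difference between Clec4fCreId3f/f and Id3f/f KCs (log2) for the genes tested in the MHC of chromosome 17, by the distance of their start from that of H2-K1 in kilobases, and for Cd74 and Ciita, which lie elsewhere. All 18 filled points (adjusted p under 0.05, limma) lie below 0, among them H2-DMa, H2-DMb1 and H2-DMb2. The other 5 class II genes of the region lie between -0.15 and -0.35, and Cd74 and Ciita both at -0.16.

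The comparison of genotypes rested on single libraries. Without Id3f/f replicate 3, 8 of the 10 genes were called lower, all but H2-Oa and Ciita (7.64% of all genes called lower). H2-Aa then differed by -0.55, Cd74 by -0.28 and H2-DMb2 by -2.04. Without Id3f/f replicate 1 or 2, H2-DMb1 was the only call (adjusted p = 0.0439 and 0.0391, limma), beside 0.897% and 1.54% of all genes called lower. Without either of the Clec4fCreId3f/f samples, which left 1 sample whose spread was taken to be that of the other group, no gene of the 10 was called, and 17 and 19 genes were called in all. The difference of H2-DMb1 stayed between -0.55 and -0.67 over these 5 omissions and that of H2-DMb2 between -1.39 and -2.04.

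**Figure D5:**
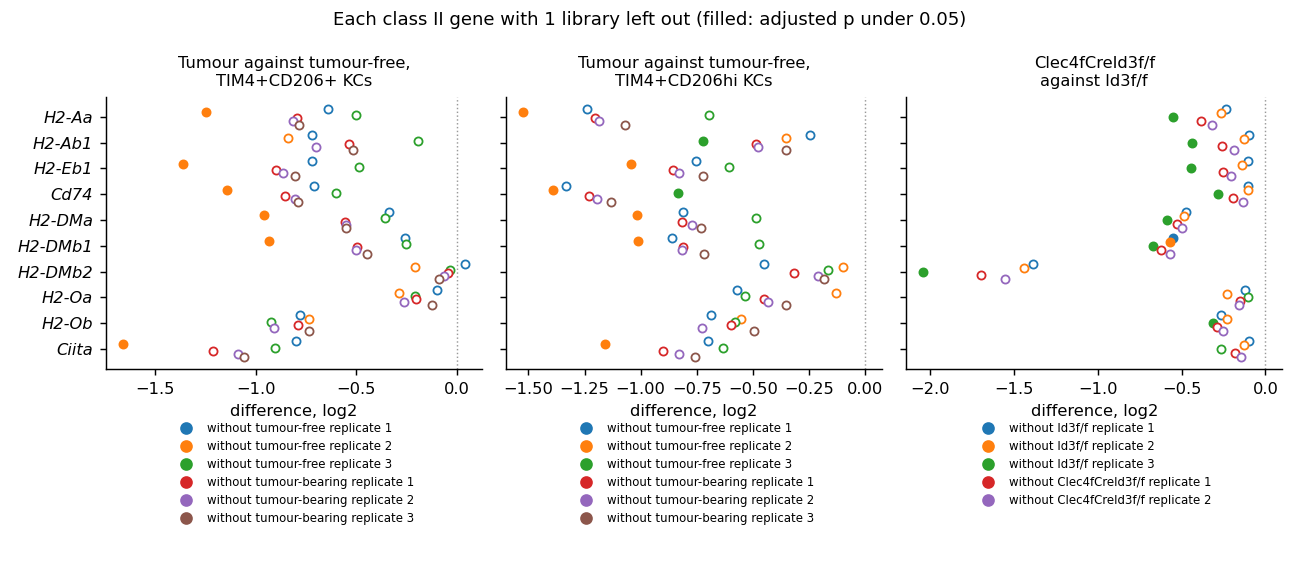
Difference of each class II gene (log2) with 1 library left out at a time, in colours by the library left out, filled where the adjusted p of limma was under 0.05. Calls appear without tumour-free replicate 2 for 6 genes in both subsets and without Id3f/f replicate 3 for 8 genes, while 1 point, H2-DMb2 in TIM4+CD206+ KCs without tumour-free replicate 1, lies above 0.

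Genes tied to class II were also lower in part in Clec4fCreId3f/f KCs, where 3.37% of all genes tested were called lower. Of 16 partners and inducers of CIITA, 2 were called lower, among them Irf1 (-0.53 ± 0.10, SE, limma, adjusted p = 0.0167), whose product acts on the Ciita gene, and 0 were called higher. The macrophage factor gene Spi1, the most abundant of them, differed by -0.02 ± 0.07. Of the endosomal proteases and the thiol reductase, 3 of 9 were called lower, all of them cathepsin genes, Ctsd (-0.62 ± 0.07, adjusted p = 0.00295), Ctsb (-0.55 ± 0.06, adjusted p = 0.0015) and Ctss, which trims the invariant chain (-0.31 ± 0.06, adjusted p = 0.0192). Of the 3 genes of class II turnover 1 was called, and the means of March1 and March8 were higher (0.19 ± 0.11 and 0.22 ± 0.13, SE, limma, adjusted p = 0.34 and 0.335). Cd83, which protects surface class II from degradation, fell from 11.80 ± 0.07 to 10.80 ± 0.13 (SD, n = 3 and 2, limma, adjusted p = 0.000973).

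Interferon-γ-induced genes were called lower for 10 of 17, with a median difference of -0.48, beside 3.37% of all genes called lower. Among them were the GTPase gene Tgtp2 (-1.20 ± 0.14, SE, limma, adjusted p = 0.00275) and Cxcl10 (-0.97 ± 0.11, adjusted p = 0.00266). The class I and peptide loading genes were called lower for 7 of 16, among them H2-Q7 (-1.13 ± 0.09, adjusted p = 0.000232) and B2m, the light chain of class I (-0.45 ± 0.06, adjusted p = 0.00551). The interferon-γ list shares 2 genes, Irf1 among them, with the list of partners and inducers. The summed level of the interferon-γ-induced genes was 15.58, 15.66 and 15.40 in Id3f/f KCs and 15.09 and 15.04 in Clec4fCreId3f/f KCs, with replicate 3 between the groups. B cell markers were called for 0 of 8 and dendritic cell markers for 0 of 12, and the summed level of B cell markers was 11.11 to 11.23 in Id3f/f and 11.21 to 11.25 in Clec4fCreId3f/f KCs. Of 7 monocyte markers 1 was called, Plac8, which was lower (-0.95 ± 0.10, SE, limma, adjusted p = 0.0015). Among the 7, 4 means were lower and 3 higher, with a median difference of -0.02. The summed level of the monocyte markers was 13.61 to 13.89 in Id3f/f and 12.90 to 12.99 in Clec4fCreId3f/f KCs, without overlap. Plac8 was the most abundant of them, at a mean of 13.64 and 12.69, so that the sum largely follows this gene. Of 10 endothelial markers, Clec4g was called lower (-0.80 ± 0.15, adjusted p = 0.0179, limma) and Pecam1 higher (0.58 ± 0.11, adjusted p = 0.018, limma), and their summed level was 13.72 to 13.985 in Id3f/f and 13.79 in both Clec4fCreId3f/f samples. The part of these cells in the class II differences was not tested. Kupffer cell markers were called higher for 3 and lower for 3 of 13, among them Clec4f itself, at 17.64 ± 0.06 and 16.12 ± 0.02 (SD, n = 3 and 2), the gene whose promoter drives Cre.

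The class II genes were also followed from sample to sample within groups. After the group means had been removed from all 17 samples, each gene was correlated with the mean of H2-Aa, H2-Ab1, H2-Eb1 and Cd74. For these 4 genes, which the mean itself contains, r was 0.99 for H2-Eb1, 0.93 for H2-Aa, 0.90 for Cd74 and 0.53 for H2-Ab1. It was 0.91 for H2-DMb1, 0.90 for H2-DMa, 0.87 for Ciita, 0.48 for H2-DMb2, and -0.14 and -0.23 for H2-Oa and H2-Ob. Apart from the class II genes, those most like this mean among 12222 were Ddit3, a stress-induced transcription factor gene (r = 0.94), Csrp1 (0.93), Ifi27 (0.93), Eif3h (0.93) and Med18 (0.93). Samples of a table share its normalization, and differences in depth and base composition between libraries were not removed. Of the 5 genes, Ddit3 was lower in Clec4fCreId3f/f KCs (-0.41 ± 0.09, SE, limma, adjusted p = 0.0311), and none passed in either tumour comparison.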

How the data were processed

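RNA-seq of 17 sorted Kupffer cell samples was analysed. The authors amplified cDNA with SMART-Seq, and the submitters' processing notes name STAR 2.7.10a, HTSeq, DESeq2 and mm10, which is GRCm38. The deposited values, named as counts and TPM, were taken to be on a log2 scale with damping of low values, normalized per table by the authors, which the labels do not state. They hold no read depth. The 10 genes, the lists and the tests were chosen with earlier results of these data known. Genes at 10 counts or more, on that scale, in as many samples as the smaller group holds were tested with limma 3.58.1 (R 4.3.3), its prior variance following mean expression. P-values were adjusted over all genes by Benjamini-Hochberg and called at 0.05, and the script was tested on simulated data with the spread of each comparison. There a set change of 1 on the log2 scale was called for 26% of changed genes in TIM4+CD206+ KCs. It was called for 18% in TIM4+CD206hi KCs and for 94% in the comparison of genotypes, so that counts of calls are not comparable between them. All 10 class II genes were named, and some genes of the other lists are not reported here by name. From each other list, the most abundant gene and up to 3 called genes with the largest differences could be named, and other genes (Tap1, Tap2, Brd2, Psmb8, Psmb9, March1, March8) were named after their values were seen. Lengths, GC content and identity came from GENCODE transcripts. Replicates of the same number correlated with r = 0.35, 0.564 and 0.149 in their deviations in TIM4+CD206+ KCs, over 0.1 in every pair. In the others r was -0.132 to -0.0481 and -0.0996 to -0.0733. Correlations between samples of different numbers were not set beside these. Since no label pairs the samples, the main fits were unpaired, and a block by replicate number was an alternative. Alternatives were other filters, scalings and variance models, the replicate block, omission of each library and, chosen after seeing the data, removal of GC and length trends. Figures were drawn with matplotlib 3.10.9 in Python 3.11.15.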

Additional observations from a re-analysis of the deposited data

How the results depend on the processing

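The differences of the 10 genes were recomputed under 410 combinations of gene and setting, of which 360 kept direction and side of the threshold, 35 gained a call, 11 lost one and 4 reversed. The reversals were H2-DMb2 in TIM4+CD206+ KCs without tumour-free replicate 1 (0.0401, lowest -0.206 without tumour-free replicate 2), H2-Ab1 (0.0038) and Cd74 (0.0561) with Id3 deletion after quantile normalization, and H2-Oa with Id3 deletion after removal of GC and length trends with the replicate block (0.0445). The cause was not tested.

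Over all genes, leaving out 1 library gave 228 to 1018 calls in TIM4+CD206+ KCs (main 469), 579 to 3653 in TIM4+CD206hi KCs (main 1053) and 17 to 1850 with Id3 deletion (main 827), and among the 10 class II genes 0 to 6, 0 to 6 and 0 to 8. The highest counts came without tumour-free replicate 2 in both subsets and without Id3f/f replicate 3, and the lowest without tumour-bearing replicate 2 in both subsets and without Clec4fCreId3f/f replicate 1. The replicate block gave 1026 calls in TIM4+CD206+ KCs, 2 of them class II genes, and 903 and 3 with removal of GC and length trends, which added Cd74. With Id3 deletion no label pairs the samples either, and the numbers leave replicate 3 without a partner. There the block gave 2089 calls, 8 of them class II genes, and 1973 and 9 with removal of GC and length trends. In TIM4+CD206hi KCs the block called 0 of the 10. The stricter filter gave 600 calls in TIM4+CD206hi KCs, and no filter 477 with Id3 deletion, where the number of genes tested differs. Without the mean-variance trend H2-DMb2 lost its call with Id3 deletion.

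The GC and length alternatives were chosen after seeing the data. With 2 or 3 samples per group and values that carry no depth, the lack of a call among the 10 genes in the tumour comparisons does not show that they did not differ.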
